A study of Mus musculus with 18 samples.

Results

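The difference between fetal and adult T cell progenitors that holds whatever the stage of maturation was measured by setting 9 fetal arrays against 9 adult arrays with the stage as a block. All 18 arrays of the series entered the comparison, over 22626 probe sets that stand for 12393 genes. The set that differed by a similar amount at every stage, as defined below, held 406 probe sets and 247 of the 12393 genes. The cells came from C57BL/6 mice and were sorted without lineage-positive cells at 3 consecutive stages of the thymus: early thymic progenitors (ETP, CD44+ CD25- c-kit+), DN2 cells and DN3 cells, with 3 arrays for each age and stage. Adult cells were from females aged 4 to 6 weeks and carried no genetic change or treatment. Fetal cells were from untreated embryos labelled E14.5, whose sex is not given, and the methods of the study name the following day. RNA was taken from equal numbers of sorted cells per sample, and the RNA of several sorts was pooled for each array. By the methods more sorts were pooled for an adult than for a fetal array, so that pool size and age cannot be told apart. On replication the sources differ, since the arrays of a group are biological replicates in their titles and technical ones in the methods, and every p-value therefore covers the spread between arrays only.

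T cells arise from blood progenitors that settle in the thymus and pass through ETP, DN2 and DN3 where the T cell receptor beta chain is first assembled and tested. The thymus is first colonised by progenitors of fetal origin, whose progeny include gamma delta T cells with invariant receptors, and later by progenitors from the adult bone marrow. Receptor genes are cut by the recombinase Rag1/Rag2, and terminal deoxynucleotidyl transferase adds bases to the joins. RNA-binding proteins of the Igf2bp family and the chromatin protein Hmga2 belong to a programme of fetal blood cells that the microRNA let-7 holds down in adult cells.

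All values are on a log2 scale on which each probe set had been set to a median of 0 over the 18 arrays, so that a difference of 1 is a 2-fold difference and the level of one gene cannot be compared with that of another. A probe set was called when the adjusted p of limma was under 0.05 over all probe sets and the mean difference was at least 1.8-fold. It was counted as stage-independent when it was called, when the fetal minus adult difference had one sign and was at least 1.8-fold at each of the 3 stages, and when the smallest of the 3 differences was at least 0.5 of the largest. Evenness is thus a property by which these probe sets were chosen, and it is described and not tested.

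Some arrays stood apart from their labels. *Xist*, the transcript of the inactive X chromosome, was at 1.59, -11.28 and -11.34 log2 in the Adult DN3 arrays, so that Adult DN3 replicates 2 and 3 went against the female label. The Y-linked *Uty* was at -0.82, 1.59 and 1.61 log2 in the same arrays and at -3.64 to 0.05 in the other 2 adult groups. *Eif2s3y*, also Y-linked, was at -0.01, 1.29 and 1.15 log2 in Adult DN3 but at 0.84, 0.01 and 1.09 in Adult ETP, where *Xist* was at 0.76, 1.41 and 0.13, and does not set the DN3 arrays apart. Fetal arrays read -1.29 to 0.23 log2 (median -0.39) for *Xist*, and the sex of the pooled embryos and the age of the cells cannot be told apart. *Cd44*, a sorting marker that falls at DN3, was at -7.97, -7.84 and -0.86 log2 in the Adult DN3 arrays, and the third of these lay in the range of DN2 cells. Of the 8 sorting markers measured limma called none between the ages, 2 had an unadjusted p under 0.05, and 4 varied by under 1 log2 over all arrays. Their mean level ran from -1.04 to 0.04 in adult and from -0.94 to 0.23 in fetal arrays. Embryonic and fetal globin transcripts were high in the fetal replicates 2 and 3 and low in some fetal replicates 1, as given below. Same-numbered fetal arrays of different stages deviated from their group means together, with correlations of 0.312 to 0.597 in all 9 pairs, so that the 9 fetal arrays form 3 sets and are not fully independent, while the p-values below treat them as separate. Arrays of one group deviated from their mean with a pooled SD of 0.41 to 0.50 log2 in adult and 0.26 to 0.34 log2 in fetal groups.

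In the comparison with stage as a block 1420 probe sets were called, of which 771 were higher in fetal cells (3.41% of all probe sets) and 649 lower (2.87%). With 1 probe set per gene these were 503 genes higher (4.06% of all genes) and 412 genes lower (3.32%). Of the 1420 probe sets, 1384 had a difference of the same sign at the 3 stages and 36 had the opposite sign at one of them. The difference passed 1.8-fold at every stage for 604 probe sets, and it was uneven for 198 of these. The remaining 406 were stage-independent, 192 higher and 214 lower, or 28.6% of those called. These stand for 117 genes higher and 130 genes lower, where the one probe set taken for the gene is counted. Of the 406, 363 are annotated to a single gene, 15 to several and 28 to none. Without the Adult DN3 replicates 2 and 3, 494 probe sets were stage-independent and 1711 were called. Leaving out the 3 fetal arrays numbered 1 gave 455 stage-independent and 1300 called. With the fetal number as a random block, chosen after seeing the data, 394 of the 406 remained in the set and 1237 of the 1420 were called.

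The stage-independent set had a median difference of 1.72 log2 among its higher and -1.64 log2 among its lower probe sets, against 0.04 log2 for all probe sets. A difference over 4-fold was reached by 78 higher and 66 lower probe sets, and one over 16-fold by 26 and 9. The ratio of the smallest to the largest stage difference had a median of 0.676, and it was at least 0.9 for 31 probe sets. At the lower boundary of evenness *Slc25a13* (0.503), *Gosr1* (0.503) and *Pde7a* (0.503) were just inside, and *Fcgr2b* (0.499), *Bcat1* (0.498) and *Zadh2* (0.496) just outside. All 9 fetal arrays lay above all 9 adult arrays for 216 probe sets (0.955%), 94 of them in the set, and below them for 136 (0.601%), 78 of them in the set. These shares use the same values as the choice of the set, so that nothing is read from them.

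The share of the set among the called probe sets was larger at the later stages, where fewer were called. Tested stage by stage, 1921 probe sets were called at ETP (8.49%), 779 at DN2 (3.44%) and 626 at DN3 (2.77%). Stage-independent probe sets made up 267, 219 and 191 of these, or 13.9%, 28.1% and 30.5%. Members had to pass 1.8-fold at every stage, so these shares mostly follow the counts of calls, and nothing is read from them. Leaving out Fetal ETP replicate 2 lowered the count at ETP to 1254, and leaving out Fetal DN2 replicate 2 lowered that at DN2 to 415. A difference called at all 3 stages in one direction was found for 203 probe sets, 156 of which were stage-independent. The largest of the 3 differences was at ETP for 158, at DN2 for 139 and at DN3 for 109 members of the set.

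**Figure D1:**
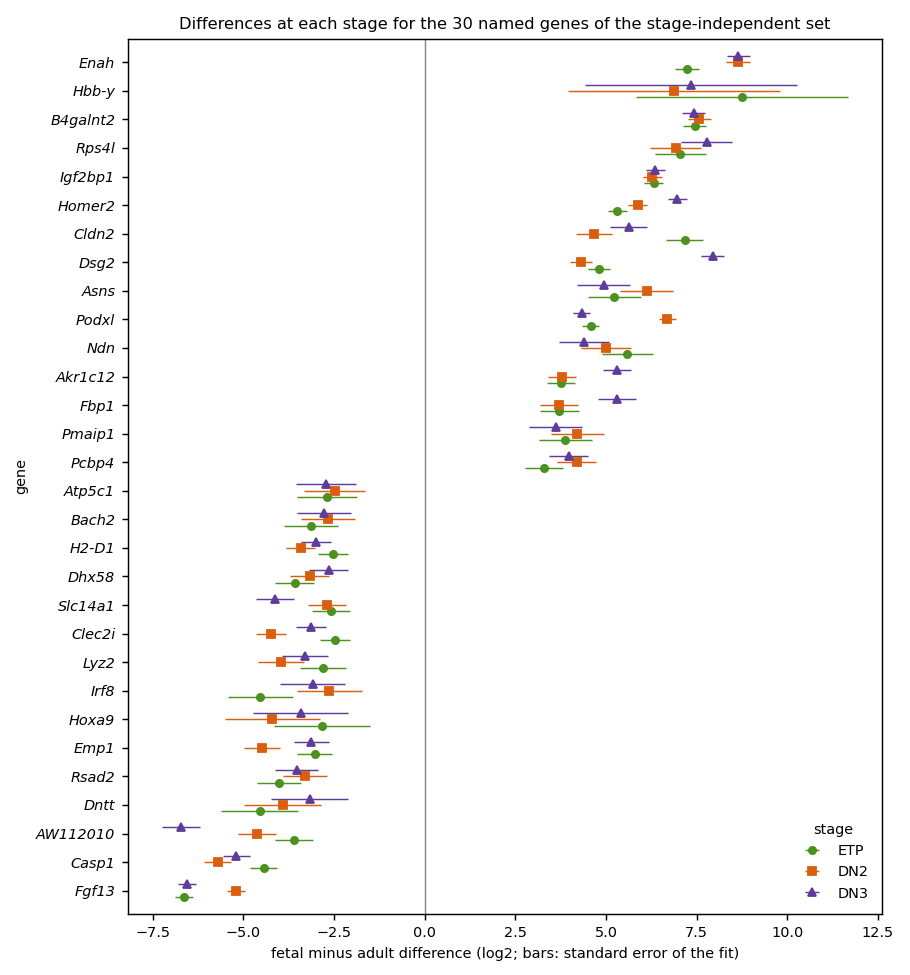
Fetal minus adult difference at ETP (circles), DN2 (squares) and DN3 (triangles) on a log2 axis for the 15 higher and 15 lower genes of the stage-independent set with the largest smallest-stage difference, with the standard error of the fit as bars. The 3 symbols of *B4galnt2* and of *Igf2bp1* lie on top of each other, while those of *Dsg2*, *Podxl* and *AW112010* are spread out and the bars of *Hbb-y* are the widest.

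The genes with the largest even excess in fetal cells included regulators of actin, glycosylation and RNA. *Enah*, a regulator of actin filament growth, read -4.60 to -3.07 log2 (median -4.47) on the adult arrays and 3.07 to 4.69 log2 (median 4.07) on the fetal arrays. The ages did not overlap, and the mean difference was 8.18 log2 (SE 0.25, adjusted p = 8.82e-12), with 7.24, 8.64 and 8.65 at ETP, DN2 and DN3. Another probe set of *Enah* was called at 3.19 log2 without being even, and the rest, at 0.11 and 0.05 log2, were not called. *B4galnt2*, a glycosyltransferase that makes a blood group sugar, read -4.16 to -3.23 log2 (median -3.41) in adult and 3.23 to 4.62 log2 (median 3.92) in fetal arrays. Its difference was 7.45, 7.57 and 7.42 log2 at the 3 stages (mean 7.48, SE 0.17, adjusted p = 2.14e-13), one of the most even in the set. *Igf2bp1*, the fetal RNA-binding protein named above, was equally even, at 6.32, 6.28 and 6.36 log2 (mean 6.32, SE 0.14, adjusted p = 1.78e-13). Adult arrays read -3.19 to -2.61 log2 (median -3.15) and fetal arrays 2.61 to 3.79 log2 (median 3.25), with a wide gap between the ages. *B4galnt2* and *Igf2bp1* are neighbours on chromosome 11 with no other measured gene between them, and a second probe set of each was in the set too, at 2.99 and 4.40 log2.

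*Rps4l*, a copy of the gene of ribosomal protein S4, was higher in fetal cells by 7.25 log2 (SE 0.39, adjusted p = 1.69e-08). Adult arrays ran from -5.32 to -2.22 log2 (median -4.96) and fetal arrays from 2.22 to 3.32 log2 (median 2.95), without overlap. Of 39 other cytoplasmic ribosomal protein genes 1 was called higher (*Rps20*) and 1 lower (*Rps24*), none was stage-independent, and their median was 0.00 log2. *Homer2*, a scaffold protein best known from synapses, differed by 5.32, 5.87 and 6.96 log2 at the 3 stages, and its 9 adult arrays lay within 0.08 log2 of each other (-2.42 to -2.34). Where arrays are that flat the probe set may be at the bottom of its range, which centred values do not show, and the fold then depends on where that bottom lies. A span under 0.5 log2 among the adult arrays was found for 9 of the 192 higher probe sets, and among the fetal arrays for 8 of the 214 lower ones.

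*Asns*, which makes asparagine and belongs to the response to missing amino acids, was higher by 5.23, 6.12 and 4.94 log2 at ETP, DN2 and DN3 (mean 5.43, SE 0.41, adjusted p = 7.73e-07). Fetal arrays were close together at 1.48 to 2.55 log2 (median 2.18), and the adult arrays were wider at -4.50 to -1.48 log2 (median -3.78). Its promoter (RefSeq, GRCm38.p6, chr6:7693160-7693459, minus strand, 250 bases before to 50 bases after the start) is shown because it holds the letters TGATGNAA of the amino acid response element, in capitals.
Asns: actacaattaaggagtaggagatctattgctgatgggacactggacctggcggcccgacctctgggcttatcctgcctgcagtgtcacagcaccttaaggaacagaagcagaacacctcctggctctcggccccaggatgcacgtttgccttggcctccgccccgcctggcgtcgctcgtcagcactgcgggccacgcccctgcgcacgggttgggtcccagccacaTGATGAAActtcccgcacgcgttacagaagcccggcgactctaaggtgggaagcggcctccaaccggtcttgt
These letters, on either strand, were in the promoters of 3 of the 91 stage-independent higher genes with a promoter in the table (3.3%), *Asns*, *Fgl2* and *Tubb3*, and of 309 of 9887 measured genes (3.13%). A match in this window is a description of the sequence and says nothing of binding.

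Further large and even excesses were found for genes of cell junctions and surfaces, of metabolism and of cell death. *Cldn2*, a claudin of tight junctions, was higher by 7.17, 4.67 and 5.63 log2 at the 3 stages. *Podxl*, a sialomucin of blood progenitors and podocytes, was higher by 4.57, 6.69 and 4.34 log2, and *Dsg2*, a cadherin of desmosomes, by 4.80, 4.32 and 7.94 log2. For both of the last named the difference itself changed between stages (adjusted p of the interaction 0.00188 and 0.000562), although both met the rule for evenness. The other probe sets of *Cldn2* and *Podxl* were at 0.06 and 0.04 log2 and were not called. For *Dsg2* another probe set was in the set at 6.18 log2, and the rest, at 0.04 to 0.81 log2, were not called. *Fbp1*, an enzyme of glucose synthesis, differed by 3.71, 3.71 and 5.31 log2 and *Akr1c12*, an aldo-keto reductase, by 3.77, 3.80 and 5.30 log2. *Pcbp4*, an RNA-binding protein, had 3.29, 4.19 and 3.97 log2. *Pmaip1*, the cell death protein Noxa, was higher by 3.88, 4.21 and 3.61 log2 (mean 3.90, SE 0.40, adjusted p = 1.56e-05), with adult arrays at -4.39 to -1.06 log2 (median -2.21) and fetal arrays at 1.06 to 1.8 log2 (median 1.32).

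**Figure D2:**
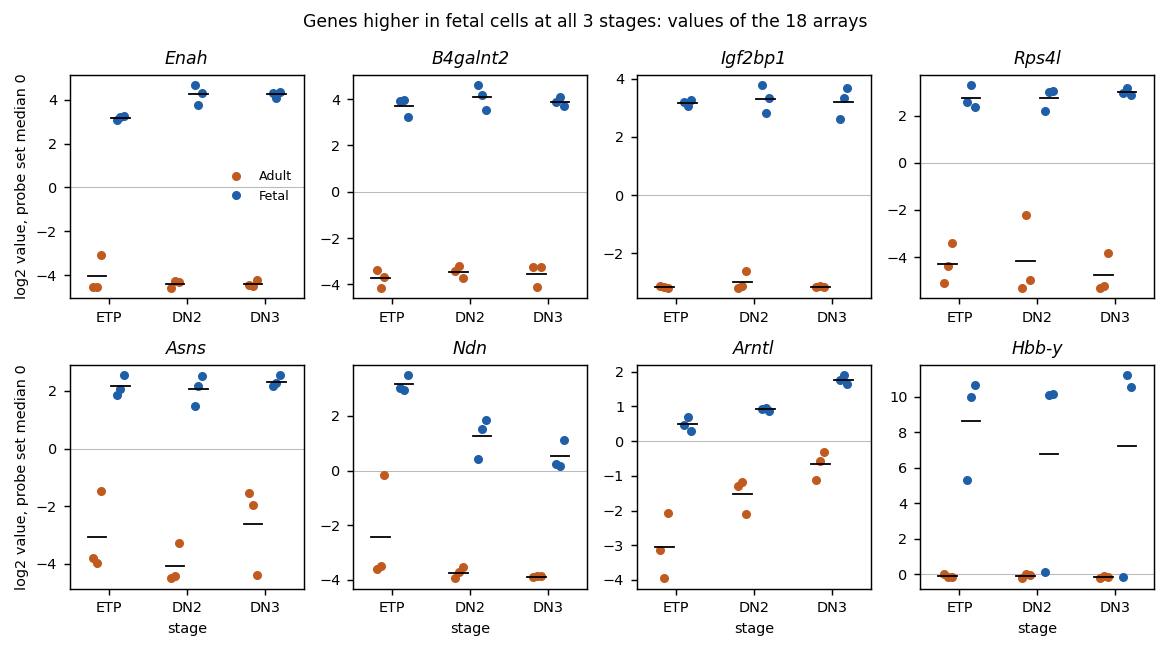
Values of the 18 arrays for 8 genes higher in fetal cells, as log2 with the median of each probe set at 0, by stage (horizontal axis) and age (colour), with a line at the mean of 3 arrays. Fetal and adult points are apart at every stage for the first 7 genes, and for *Hbb-y* the fetal replicates 1 of DN2 and DN3 lie with the adult arrays.

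Globin transcripts met the rule while differing widely among the fetal arrays. *Hbb-y*, an embryonic beta-like globin, read 5.31, 9.96 and 10.68 log2 in the Fetal ETP arrays, 0.12, 10.10 and 10.14 in Fetal DN2 and -0.16, 11.22 and 10.57 in Fetal DN3, against -0.23 to 0.01 in all adult arrays. The mean difference of 7.66 log2 had an SE of 1.58 (adjusted p = 0.00507), and the call was lost without the fetal replicates 2 and 3, where the difference was 1.86 log2. It was kept without the fetal replicates 1, at 10.6 log2, and lost without the 6 ETP arrays, at 7.11 log2 (adjusted p = 0.123). A probe set shared by the alpha globin genes *Hba-a1* and *Hba-a2* had the largest excess of the set, 10.0 log2, with 10.07, 9.52 and 10.40 at the 3 stages. In it the fetal replicates 1 stood at 4.23, 3.12 and 3.95 log2, the other fetal arrays at 6.89 to 8.37, and the adult arrays at -3.66 to -3.12. Of the 16 erythroid markers measured 2 were called higher, *Hbb-y* and *Gata1*, and 8 were flat, with a span under 1 log2 over all arrays. The mean of the list ran from -0.32 to 0.40 log2 in adult and from -0.08 to 1.77 log2 in fetal arrays, and how far red cells in the sorted fractions contribute was not tested.

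Among the genes lower in fetal cells *Dntt*, which encodes terminal deoxynucleotidyl transferase, stood first. All 3 of its probe sets were in the set. In the one with the widest span of the whole series the Adult ETP arrays read 6.12, 6.14 and 6.14 log2, the Adult DN2 arrays 6.29, 6.32 and 6.50 and the Adult DN3 arrays 6.35, 6.49 and 6.29. Fetal arrays read -6.45, -6.45 and -6.34 at ETP, -6.12, -6.13 and -6.14 at DN2 and -6.23, -6.18 and -6.12 at DN3. The difference was -12.55, -12.50 and -12.55 log2 at the 3 stages (mean -12.53, SE 0.03, adjusted p = 7.4e-27), the largest of all stage-independent differences. Its second probe set gave -12.32 log2 and the one taken for the gene -3.87 log2 (SE 0.59), which differ in size while the ages stayed apart on each. The probe set at -12.53 log2 carries the mark _x in its name and that at -12.32 log2 the mark _a, and the one taken for the gene carries neither. On the first, the arrays were nearly flat at both ages and may be at the ends of its range. The size and the small SE of its difference then depend on where those ends lie.

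*Fgf13*, an intracellular relative of the fibroblast growth factors, was lower, at -6.64, -5.21 and -6.56 log2 at ETP, DN2 and DN3 (mean -6.13, SE 0.22, adjusted p = 6.97e-11). Its fetal arrays were flat at -2.63 to -2.34 log2 (median -2.45) and its adult arrays were at 2.34 to 4.64 log2 (median 3.86). *Casp1*, the protease of the inflammasome, differed by -4.44, -5.71 and -5.19 log2 (mean -5.11, SE 0.24, adjusted p = 3.6e-09), with adult arrays at 0.58 to 3.85 log2 (median 2.75) and fetal arrays at -3.97 to -0.58 log2 (median -2.88). Its level fell from ETP to DN3 at both ages, and the ages did not overlap. The transcript *AW112010* was lower, at -3.61, -4.61 and -6.71 log2, a difference that was larger at the later stages without passing the test of a change (adjusted p = 0.102). *Bach2*, a repressor that restrains effector programmes in lymphocytes, was lower, at -3.14, -2.68 and -2.77 log2 and did not overlap between the ages. *Clec2i*, a lectin recognised by natural killer receptors, was lower, at -2.47, -4.23 and -3.13 log2, *Emp1*, a membrane protein, at -3.03, -4.48 and -3.12 log2, and *Slc14a1*, a urea transporter, at -2.59, -2.70 and -4.12 log2. *Atp5c1*, a subunit of ATP synthase, was lower, at -2.69, -2.48 and -2.72 log2 on the probe set taken for the gene, while its other probe set gave 0.20 log2 (adjusted p = 0.106). Such disagreement was common: 75 of the 131 genes described or checked here by rule have several probe sets, of which none was called in the other direction, and all shared the call for 28 genes. For *Bcl2l2*, *Bid*, *Dhx58*, *Ezh1*, *Fgf13*, *Grb10*, *Hoxa9*, *Il6st*, *Nr1d2* and *Tap1*, all in the set, every other probe set was at -0.01 to 0.10 log2 and not called. That of *Irf8* was not called either, at -3.74, -0.09 and -0.02 log2. Outside the set, no other probe set of *Bmpr1a* or *Dnmt3a* was called.

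**Figure D3:**
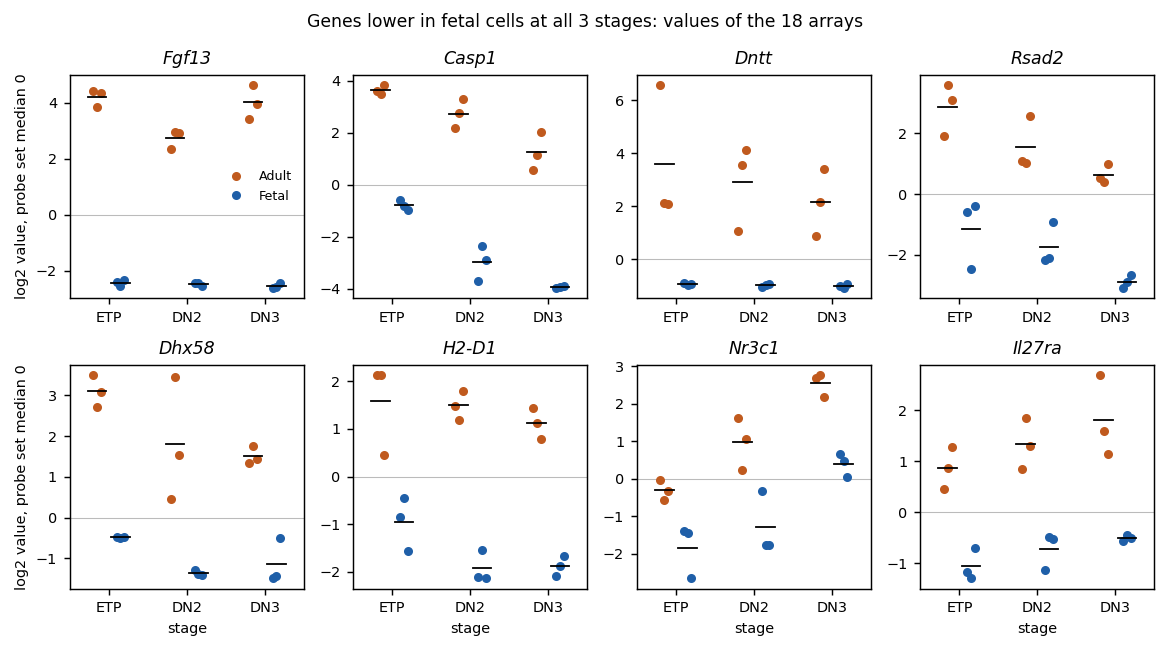
Values of the 18 arrays for 8 genes lower in fetal cells, as log2 with the median of each probe set at 0, by stage (horizontal axis) and age (colour), with a line at the mean of 3 arrays. The fetal arrays of *Fgf13* and *Dntt* lie flat at all stages, and *Casp1* falls from ETP to DN3 at both ages with the fetal points below.

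Gene lists were set beside all genes, of which 4.06% were called higher and 3.32% lower and whose median difference was 0.04 log2. Over all 12393 genes 8580 differences were above 0 and 3813 below. Of 32 measured genes of the type I interferon response 9 were called lower and none higher, 4 of them stage-independent, and 27 of 32 differences were below 0 with a median of -0.62 log2. *Rsad2*, the antiviral protein viperin, read 0.38 to 3.61 log2 (median 1.09) in adult and -3.10 to -0.38 log2 (median -2.18) in fetal arrays, without overlap (mean difference -3.61 log2, SE 0.33, adjusted p = 4.96e-06). *Dhx58*, a sensor of viral RNA, was lower, at -3.58, -3.17 and -2.64 log2 at the 3 stages. *Oas1a*, which makes the activator of RNase L, was lower, at -1.78, -2.30 and -1.33 log2, and *Rtp4*, another interferon target, at -1.83, -2.06 and -1.20 log2. *Usp18*, *Ifit2*, *Oasl2*, *Irf9* and *Parp14* were called lower without meeting the rule for evenness, with smallest differences of -1.44, -1.14, -0.72, -0.38 and -0.56 log2. *Mx1*, *Oas3* and *Ifit3*, which belong to the same response, were not called (-0.28, -0.25 and -0.31 log2).

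The promoters of *Rsad2* and *Oas1a* (RefSeq, GRCm38.p6, chr12:26456403-26456702 and chr5:120907476-120907775, both minus strand) are shown because they alone among the 5 of the 9 called members with a promoter in the table hold the letters of the interferon-stimulated response element, GAAA and GAAA with any 2 bases between them, on one of the strands, in capitals.
Rsad2: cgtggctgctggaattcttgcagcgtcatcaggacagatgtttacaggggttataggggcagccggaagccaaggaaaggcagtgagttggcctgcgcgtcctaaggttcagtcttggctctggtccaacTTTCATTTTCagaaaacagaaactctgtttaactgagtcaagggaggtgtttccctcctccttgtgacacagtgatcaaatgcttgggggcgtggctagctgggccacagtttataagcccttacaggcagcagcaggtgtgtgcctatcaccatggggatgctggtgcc
Oas1a: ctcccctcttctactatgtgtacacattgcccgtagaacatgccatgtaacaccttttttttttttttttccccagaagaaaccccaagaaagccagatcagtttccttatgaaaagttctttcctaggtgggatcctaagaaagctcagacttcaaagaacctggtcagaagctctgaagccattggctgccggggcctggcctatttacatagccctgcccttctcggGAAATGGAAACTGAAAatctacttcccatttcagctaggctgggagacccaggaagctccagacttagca
In *Oas1a* 2 matches overlap. On either strand, these letters were found in 6 of 100 stage-independent lower genes with a promoter (6%), in 3 of 91 higher genes (3.3%) and in 380 of 9887 measured genes (3.84%). The other 4 lower genes were *Ddx60*, *Lats2*, *Tmem140* and *Wls*. The E-box CACGTG was in 14 of 100 lower genes (14%), 12 of 91 higher genes (13.2%) and 1069 of all (10.8%).

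Of 9 interferon-inducible GTPases, which attack the membranes around parasites, 3 were called lower and none higher, with a median of -0.62 log2. *Ifi47* was lower, at -1.06, -1.25 and -1.59 log2 (mean -1.30, SE 0.08, adjusted p = 1.03e-07), with the 9 fetal arrays at -0.81 to -0.31 log2 (median -0.62) and the adult arrays at 0.31 to 0.95 log2 (median 0.69), and *Iigp1* at -1.62, -1.10 and -2.10 log2. *Gbp6* was lower, at -2.52, -5.27 and -2.97 log2 and too uneven for the set. A probe set shared by *Tgtp1* and *Tgtp2*, which are of the same family, was in the set at -1.34 log2. Of 5 members of the p200 family of DNA sensors 2 were called lower and 1 higher. *Ifi209* was lower, at -4.95, -4.09 and -2.43 log2, *Mndal* was lower, at -0.86 log2 on average, and *Ifi204* changed from -0.91 at ETP to 8.78 log2 at DN3. The calls of *Mndal* and *Ifi204* were lost on leaving out any of 12 and of 8 single arrays, with adjusted p up to 0.0901 and 0.0574. Both were lost too with the fetal number as a random block (adjusted p = 0.0896 and 0.0623). The counts of the interferon response, the GTPases and MHC class I were unchanged without the Adult DN3 replicates 2 and 3 and without the fetal arrays numbered 1, and were 4, 2 and 2 without the fetal arrays numbered 2 and 3.

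Of 18 genes of MHC class I and antigen processing 5 were called lower and none higher, 4 of them stage-independent, with a median of -0.41 log2. *H2-D1*, a classical class I heavy chain, was lower, at -2.53, -3.42 and -3.0 log2 (mean -2.98, SE 0.24, adjusted p = 1.13e-06), with adult arrays at 0.46 to 2.13 log2 (median 1.45) and fetal arrays at -2.13 to -0.46 log2 (median -1.67). *H2-K1*, the other classical heavy chain, was lower, at -1.78, -2.86 and -1.54 log2, *Tap1*, a peptide transporter, at -1.56, -1.69 and -0.93 log2, and *H2-M3*, a class I molecule that presents formylated peptides, at -1.46, -1.79 and -0.97 log2. *Cd1d1*, which presents lipids, was called lower at -0.99, -0.95 and -0.83 log2 and missed the 1.8-fold limit at DN3. Class I genes are near-identical copies and the probe sets can measure each other's transcripts: of the 9 probe sets of *H2-D1*, 4 had differences between -0.18 and 0.03 log2. Probe sets shared by *H2-Q7* and *H2-Q9*, and by *H2-Q6* and *H2-Q8*, were in the set at -7.71 and -4.81 log2, with fetal arrays of the second flat at -1.29 to -1.09.

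Of 8 MHC class II genes 2 were called lower, and the median was -1.85 log2. *H2-Aa* and *Cd74* differed by -7.56, -0.60 and 0.31 and by -5.03, 0.14 and 0.10 log2 at ETP, DN2 and DN3 and were not called (adjusted p = 0.0806 and 0.11). *H2-DMa*, which loads peptides onto class II, was the member in the set, lower, at -3.47, -2.28 and -1.96 log2 (adjusted p = 0.000113), and *H2-Ab1* was called at -4.18, -1.67 and -0.87 log2. Of 10 dendritic cell markers 2 were called lower, *Irf8* at -4.53, -2.63 and -3.09 and *Tcf4* at -1.61, -0.68 and -1.88 log2, and 4 were flat, with list means of -0.19 to 1.54 in adult and -0.47 to 0.77 log2 in fetal arrays. Of 21 granulocyte and macrophage markers *Lyz2* (lysozyme, -2.81, -3.97 and -3.29 log2, stage-independent) and *Ctsg* (cathepsin G, -7.13, -2.42 and -0.09 log2) were called lower and 10 were flat, with list means of -0.42 to 2.48 in adult and -0.56 to 1.28 log2 in fetal arrays. Limma called none of 12 B cell markers, 5 of which had an unadjusted p under 0.05 and 9 of which were flat. The part of these cells in the class II and interferon differences was not tested.

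The fetal blood programme and let-7 target list had 3 of 14 measured members called higher and 1 lower, with a median of 0.15 log2. Beside *Igf2bp1*, its relative *Igf2bp3* was in the set at 2.17, 2.48 and 2.35 log2 (mean 2.33, SE 0.35, adjusted p = 0.00051). *Hmga2* was higher by 2.82, 7.09 and 5.57 log2, a difference that changed between stages (adjusted p = 9.62e-05), and its adult arrays stood at 1.58, 0.21 and 0.82 log2 at ETP and at -6.12 to -4.88 log2 later. *Tut7*, a uridylyl transferase that acts on let-7 precursors, was lower, at -0.88 log2 on average.

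Imprinted genes, which are expressed from one parental copy and often act on fetal growth, were called higher in 3 of 23 cases and lower in none. *Ndn*, encoding necdin, was higher by 5.59, 5.0 and 4.40 log2 (mean 4.99, SE 0.40, adjusted p = 1.13e-06), with adult arrays at -3.95 to -0.17 log2 (median -3.72) and fetal arrays at 0.17 to 3.50 log2 (median 1.54). *Grb10*, a brake on insulin receptor signalling, was higher by 2.98, 1.74 and 1.55 log2 and was in the set. *Igf2*, the growth factor, was higher by 4.46, 7.82 and 9.36 log2, growing along the stages beyond the limit of evenness.

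The genes of V(D)J recombination were called in both directions, 4 higher and 2 lower of 12. *Rag2*, the partner of *Rag1* in the recombinase, was even, at 2.04, 1.56 and 1.48 log2 (mean 1.69, SE 0.18, adjusted p = 2.23e-05). It rose from ETP to DN3 at both ages, from -2.36, -2.71 and -2.64 to 0.79, 0.32 and 0.05 log2 in adult arrays and from -0.66, -0.40 and -0.54 to 1.97, 1.8 and 1.82 in fetal arrays. *Rag1* was not even, with 3.72, 1.06 and 0.40 log2. *Polm*, a polymerase related to Dntt, differed by 0.07, 1.06 and 3.31 log2 (adjusted p of the change = 0.000711). The genes of the Ku proteins, which hold broken DNA ends, were called in opposite directions, *Xrcc5* higher by 0.91 and *Xrcc6* lower, at -0.89 log2 on average.

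**Figure D4:**
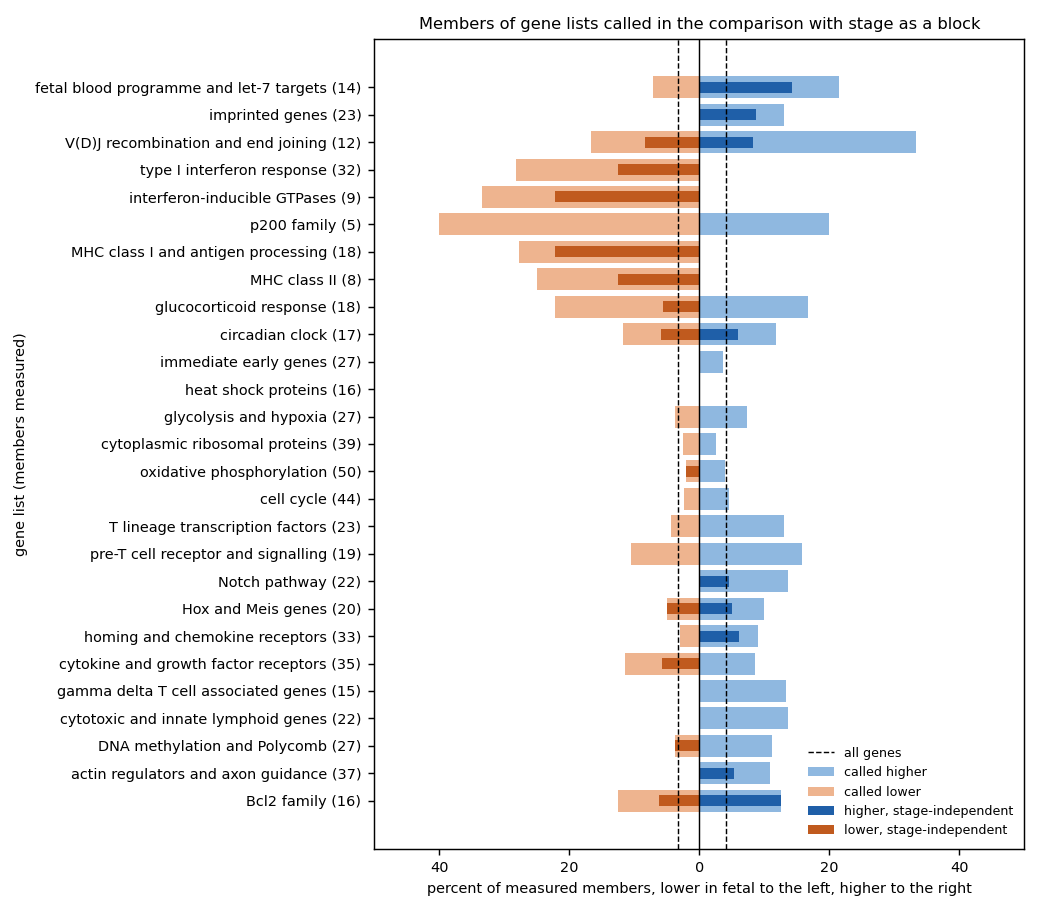
Percent of the measured members of each gene list called lower (left) or higher (right) in fetal cells, with the stage-independent part as the darker inner bar and the shares over all genes as dashed lines. The interferon and MHC lists extend to the left only, the V(D)J list to both sides, and the heat shock list holds no call.

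*Nr3c1*, the glucocorticoid receptor, was lower, at -1.53, -2.25 and -2.15 log2 (mean -1.98, SE 0.26, adjusted p = 0.000125), with adult arrays at -0.56 to 2.77 log2 (median 1.07) and fetal arrays at -2.66 to 0.67 log2 (median -1.39), which overlap across the stages but not within any stage. The gene rose from ETP to DN3 at both ages. In the list of the glucocorticoid response 4 of 18 members were called lower and 3 higher, and its median was -0.19 log2. Another probe set of *Klf9* was in the set, at -5.06 log2. The targets *Tsc22d3*, *Txnip* and *Klf9* were lower, at -1.68, -1.69 and -2.51 log2 on average, and *Errfi1*, *Mt2* and *Sgk1* were higher by 2.58, 1.11 and 1.10 log2.

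Of 17 clock genes 2 were called higher and 2 lower. *Arntl*, which encodes the clock activator Bmal1, was higher by 3.54, 2.44 and 2.44 log2 (mean 2.81, SE 0.24, adjusted p = 2.58e-06), and no fetal array overlapped an adult one. *Nr1d2*, a nuclear receptor that represses *Arntl*, was lower, at -1.5, -1.41 and -1.88 log2 (mean -1.60, SE 0.13, adjusted p = 1.13e-06). *Dbp*, an output gene of the clock, was lower, at -1.92, -1.21 and -2.69 log2 and *Bhlhe40*, a repressor, higher by 3.24, 0.59 and 0.75 log2, neither of them evenly. The hour at which tissues were taken is not given in the sources used here.

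Of 35 cytokine and growth factor receptors 4 were called lower and 3 higher. *Il27ra*, a receptor chain of interleukin 27, was lower, at -1.92, -2.04 and -2.32 log2 without overlap (mean -2.09, SE 0.20, adjusted p = 7.42e-06), and *Il6st*, the gp130 chain with which it pairs, was lower, at -2.73, -1.45 and -1.72 log2 (adjusted p = 0.000145). The other probe sets of *Il6st*, at 0.04 and 0.05 log2, were not called. *Ifnar2*, a chain of the type I interferon receptor, and *Crlf2*, a receptor chain of TSLP, were lower, at -1.02 and -0.90 log2. *Bmpr1a*, *Il12rb2* and *Igf1r* were higher by 2.70, 1.39 and 0.92 log2 and were not even. In the Bcl2 family 2 of 16 were higher and 2 lower. The death-promoting *Bid* (1.65, 1.96 and 1.14 log2) and *Pmaip1* were higher and the survival gene *Bcl2l2* (-1.09, -1.71 and -1.95 log2) was lower at all stages, while the death-promoting *Bcl2l11* was lower, at -0.93 log2 on average.

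Of 37 actin regulators and axon guidance genes 4 were higher and none lower, with *Enah* and *Robo1*, a receptor for Slit proteins (2.00, 2.40 and 2.47 log2), in the set, and *Nrp1* (0.04, 3.62 and 2.46 log2) and *Plxnd1* (1.95, 2.97 and 0.09 log2) outside it. Of 33 homing and chemokine receptors 3 were higher and 1 lower. *Itga6*, an integrin chain that binds laminin, was higher by 2.01, 1.67 and 1.42 log2 and *Cdh1*, E-cadherin, by 1.97, 1.52 and 1.92 log2, both evenly. *Itgae* (2.24, 0.55 and 4.77 log2) and *Ccr9* (-0.99, -3.69 and -1.43 log2) changed along the stages, although another probe set of *Ccr9*, a chemokine receptor of thymic homing, was in the set at -2.05 log2. *Cdh1* and *Krt18* (2.38, 1.87 and 1.93 log2) are also 2 of the 10 thymic epithelial markers measured, of which 5 were flat and no other was called, with list means of -0.97 to 0.56 in adult and -0.39 to 1.05 log2 in fetal arrays. Among mesenchyme (12), endothelium (11) and mast cell and megakaryocyte markers (12) 1 each was called higher, *Pdgfrb*, *Esam* and *Itga2b*, and none was stage-independent. Of these lists 11, 7 and 10 members were flat, in this order. The calls of *Pdgfrb* and *Esam* were lost on leaving out any of 13 and of 8 single arrays, and with the fetal number as a random block.

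Regulators of T cell identity were mostly outside the set. Of 23 T lineage transcription factors 3 were called higher (*Lef1*, *Spib* and *Ahr*) and 1 lower (*Ets1*), none evenly. *Gata3* and *Bcl11b* were not called (0.63 and 0.80 log2 on average, adjusted p = 0.121 and 0.286). No probe set was assigned to *Tcf7* alone by the gene naming used here, so it was not examined, although the study reports the gene from these arrays. A mean over the stages can miss a difference confined to some of them. Of 22 genes of the Notch pathway 3 were higher, and *Nrarp*, a target and inhibitor of Notch, was in the set at 2.01, 3.88 and 3.73 log2 (mean 3.21, SE 0.42, adjusted p = 0.00013). *Notch1* itself had 0.37 log2 on average over the stages (adjusted p = 0.35). *Dtx1* and *Ptcra*, other Notch targets, were higher by 1.96, 3.26 and 1.40 and by 2.10, 2.19 and 0.82 log2. In pre-T cell receptor signalling 3 of 19 were higher and 2 lower, with *Txk* at 1.97, 4.77 and 4.49 log2. Among 20 Hox and Meis genes *Hoxa9*, active in progenitors, was lower, at -2.83, -4.20 and -3.42 log2 (adjusted p = 0.00516, SE 0.72), and *Pbx2*, a partner of Hox proteins, higher by 1.13, 1.67 and 1.26 log2, both in the set. The Adult DN3 arrays of *Hoxa9* read -7.36, -4.85 and 0.24 log2, the third again in the range of DN2 cells. The place of *Hoxa9* in the set rests on that array. Without it the differences were -2.83, -4.20 and -1.30 log2, which is called but too uneven. *Meis1*, a partner of Hoxa9, differed by 0.52 log2 at ETP and by 5.85 and 5.98 log2 at DN2 and DN3.

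Markers of later alpha beta thymocytes were called lower in 2 cases and higher in 1 of 6, with *Cd6*, a surface receptor of T cells, in the set at -3.13, -1.92 and -2.41 log2. Of 22 cytotoxic and innate lymphoid genes 3 were called higher and none lower, and of 15 gamma delta T cell associated genes 2 were higher. *Gzmb* and *Gzma*, granzymes of killer cells that are in both lists, were higher by 5.76, 6.06 and 2.87 and by 9.15, 2.94 and 1.19 log2, smallest at DN3, and no gene of these lists was stage-independent.

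Oxidative phosphorylation had 2 higher and 1 lower of 50, with 44 differences above 0 (8580 of 12393 over all genes) and a median of 0.29 log2. The cell cycle list had 2 higher and 1 lower of 44 with a median of 0.27 log2, and *Cdkn2c*, an inhibitor of cyclin-dependent kinases, was the lower one at -3.34, -5.67 and -2.21 log2. Without the Adult DN3 replicates 2 and 3 the cell cycle list had 7 higher and 1 lower. Glycolysis and hypoxia had 2 higher and 1 lower of 27, and immediate early genes had 1 higher of 27, *Klf4* at -0.24, 5.17 and 4.14 log2. Of 16 heat shock genes limma called none, although 10 had an unadjusted p and 4 an adjusted p under 0.05, all of the 4 below 1.8-fold. DNA methylation and Polycomb genes had 3 higher and 1 lower of 27. *Ezh1*, a histone methyltransferase of Polycomb, was lower, at -1.94, -1.52 and -1.71 log2 without overlap (mean -1.73, SE 0.17, adjusted p = 8.7e-06), while *Dnmt3a* and *Dnmt3b*, which place new DNA methylation, were higher by 1.02 and 1.01 log2. Limma called none of 12 sex-linked transcripts, 5 had an unadjusted p under 0.05, and 5 were flat.

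The course from ETP to DN3 was not used to choose the set. A difference between the stages, over both ages, was called for 1740 of all probe sets (7.69%), and for 61 of the 192 higher (31.8%) and 77 of the 214 lower members (36.0%). Both shares are above that of all probe sets, which include many that vary little on any array, and the difference was not tested. The stage test comes from the same fit as the age test that chose the set. Probe sets with a small residual spread pass both more easily, so nothing is read from these shares. Among the higher members 22 rose and 25 fell in order from ETP over DN2 to DN3, and among the lower members 17 rose and 45 fell, against 614 and 791 of all. *Arntl* and *Rag2* are examples of higher genes that rose, *Ndn* of one that fell in fetal arrays, and *Casp1*, *Lyz2* and *Slc14a1* of lower genes that fell. The X chromosome held 5 of the 117 higher and 3 of the 130 lower genes, beside 402 of 12369 measured genes with a known chromosome. With no other measured gene between them, 4 pairs of members were neighbours, all higher: *B4galnt2* with *Igf2bp1*, *H3c7* with *H3c4*, *Basp1* with *Myo10*, and *Bex2* with *Bex4*. The pair of histone H3 genes is nearly identical in sequence, and their probe sets may share transcripts.

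Of 54 named genes in the set 38 stayed in it without any single array. The other 16, for which leaving out 1 to 5 of the arrays one at a time took them out of the set, were *AW112010*, *Bcl2l2*, *Cd6*, *Dsg2*, *Grb10*, *H2-K1*, *H2-M3*, *Hoxa9*, *Iigp1*, *Il6st*, *Irf8*, *Itga6*, *Nr3c1*, *Nrarp*, *Pbx2* and *Tap1*, and each kept its call. A direct test of a change between stages was passed by few members. Since members were chosen for even differences, a low count is built into the choice and nothing is read from it. The fetal minus adult difference changed between stages for 483 probe sets (2.13%), 165 of which were called in the comparison over all stages and 5 of which were in the stage-independent set. Without adjustment 39 of the 406 had a p under 0.05, and a p over the threshold does not show that 3 differences were equal. *Meis1*, *Hmga2* and *Gata1* had the lowest adjusted p of the change among the called genes of the lists (1.16e-05, 9.62e-05 and 0.00017). *Gata1*, the factor of the red cell lineage, was higher by 0.99, 1.59 and 5.0 log2, with the Fetal DN3 arrays at 5.23, 4.75 and 4.13. Adult DN3 replicates 2 and 3 weigh on these counts: without them the change was called for 902 probe sets.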

How the data were processed

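RNA of 18 samples of sorted mouse thymocyte progenitors (3 per age and stage) had been amplified in 2 rounds and hybridised to Affymetrix mouse expression arrays. The deposited values are log2 expression that the authors had made with GCRMA, per the labels, and centred on the median of each probe set over all 18 arrays, so that levels and detection are not known here. Base 2 follows from the widest span of a probe set, 12.95, which exceeds the natural-log range of the scanner, 11.09. No column was left out.

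From these values limma 3.58.1 (R 4.3.3) fitted stage and age to all 22626 probe sets, with Benjamini-Hochberg adjustment over all of them. Stage-wise differences and their change between stages (moderated F over 2 terms) came from a fit of 6 group means. Genes were named through the platform annotation, which gave 1 gene for 20380 probe sets, several for 691 and none for 1555. One probe set per gene was used, with those free of the marks _s, _x and _a in their names first and then the widest SD. On simulated data the fit recovered most of the large changes that had been added. The noise there was independent between arrays, so it does not bear on the linked fetal arrays of the same number.

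The comparison, the 38 gene lists (758 of 887 genes measured) and the alternatives were chosen with earlier results of these data known, and the fetal number as a random block was added after seeing the data. Named by rule were the 15 stage-independent genes in each direction with the largest smallest-stage difference, up to 4 called members of each list with the largest differences, all sex-linked transcripts and sorting markers, and the 3 list genes with the lowest adjusted p of a change between stages. Other named genes were chosen after their values were seen. Promoters are from RefSeq GRCm38.p6 and were in the table for 9887 of 12393 genes. Figures were drawn with matplotlib 3.10.9. The number of arrays limits the precision, and each step before centring can compress or stretch differences of dim probe sets.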

Additional observations from a re-analysis of the deposited data

Results flagged for a closer look

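The fetal minus adult difference itself changed between ETP, DN2 and DN3 for 165 of the called probe sets by the moderated F of limma over all probe sets. Among the named genes 22 were of this kind. Regulators of progenitors and of lineage, *Meis1*, *Hmga2*, *Gata1*, *Klf4*, *Klf9* and *Lef1*, had adjusted p of 1.16e-05, 9.62e-05, 0.00017, 0.0042, 0.047 and 0.0346, in this order. For the receptors and adhesion molecules *Bmpr1a*, *Ccr9*, *Itgae*, *Podxl*, *Dsg2* and *Esam* the values were 0.0419, 0.0356, 0.00266, 0.00188, 0.000562 and 0.000504. For the genes of recombination and DNA methylation *Polm*, *Rag1* and *Dnmt3a* they were 0.000711, 0.0188 and 0.0305. Immune effector and antigen presentation genes *Ctsg*, *Gzma*, *H2-Ab1* and *Ifi204* had 0.000706, 0.00087, 0.0496 and 0.00208. The remaining genes *Cdkn2c*, *Egln3* and *Ptpn22*, which act in the cell cycle, oxygen sensing and receptor signalling, had 0.0122, 0.0206 and 0.0375. *Dsg2* and *Podxl* are the 2 that were also stage-independent by the rule of sizes. Without the Adult DN3 replicates 2 and 3 the test called 902 probe sets in place of 483, and without the fetal arrays numbered 1 it called 244.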

How the results depend on the processing

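In the 4707 values of named genes under an alternative, 4425 kept their call or its absence, 280 lost the call and 2 gained one. Direction was compared only where the main fit or the alternative called the gene, and none of these values changed direction. Values called in neither were not compared for direction. The 1420 called and 406 stage-independent probe sets became 1580 and 398 with 6 group means, and 1372 and 409 with each array centred on its median. Centring moved the share of higher calls from 54.3% to 50% (686 higher and 686 lower). Array weights, whose estimation stopped before converging, gave 2280 called, 2058 with a change between stages, 3006 at ETP and 3411 at DN2, and found 329 stage-independent, with 239 of the 406 kept. Without a fold threshold 2965 were called and 959 were stage-independent, and with the smallest difference at least 66.7% of the largest 214 were. A range of at most 1 log2 in place of the ratio gave 310, of which 302 were in the set.

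Without the ETP arrays 706 were called and 90 changed between stages, and without the DN2 arrays 931 were called. Without the DN3 arrays 985 were stage-independent, 107 changed between stages and 513 were called at DN2. Without the Adult DN3 replicates 2 and 3 the change was called for 902, and 323 of the 406 stayed in the set. Without the fetal arrays numbered 1 the change was called for 244, with 1125, 513 and 417 calls at ETP, DN2 and DN3, and 353 of the 406 stayed. With only these 3 fetal arrays 321 were called, 181 were stage-independent, 239 changed between stages and 295, 182 and 236 were called at the stages, with 159 of the 406 kept. The causes were not tested.

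Leaving out each array in turn gave 1201 to 1545 called, 361 to 452 stage-independent, 334 to 708 changed between stages, 1254 to 2130 at ETP, 415 to 969 at DN2 and 452 to 666 at DN3. Of 111 called named genes 98 kept their call without any single array. The other 13, none of them stage-independent, are *Bcl2l11*, *Birc5*, *Cox7a2*, *Egln1*, *Esam*, *Ets1*, *Ifi204*, *Mndal*, *Pdgfrb*, *Plxnd1*, *Rnf2*, *Rps20* and *Tut7*. With probe sets averaged within each gene, 710 genes were called and 202 stage-independent, in place of 915 and 247. Among the 98, the calls of *Bcl2l2*, *Bid*, *Grb10*, *Il6st*, *Nr1d2* and *Tap1*, all in the set, were lost by this averaging. So were the calls of *Ahr*, *Bmpr1a*, *Cd247*, *Dnmt3a*, *H2-Ab1* and *Rps24*, which are outside the set.

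The replicate numbers paired the ages weakly at most. Of 27 same-numbered adult and fetal pairs 13 correlated over 0.1 (median 0.099, against -0.032 for 54 pairs of different numbers). Among fetal groups 9 of 9 did (median 0.515, against -0.245), and among adult groups 5 of 9 (median 0.117, against -0.038). Of 18 arrays 8 correlated best, on average, with the arrays of their own number at the other age. With the number as a replicate block 1460 were called, 427 were stage-independent, 511 changed between stages, and 2088, 888 and 704 were called at ETP, DN2 and DN3. With the fetal number alone as a random block (consensus correlation 0.184), added after seeing the data, 1237 were called, 394 were stage-independent and 634 changed between stages. There *Birc5*, *Esam*, *Ifi204*, *Mndal*, *Pdgfrb*, *Plxnd1* and *Rps20* lost their call, with adjusted p of 0.0506 to 0.0896.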

Other observations

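Several stage-independent genes outside the lists were singled out after their values were seen. They include 3 genes of the proteasome, for which no count over the whole complex was made. *Psma8*, an alternative core subunit, was higher by 2.59, 2.63 and 2.80 log2 at ETP, DN2 and DN3 (adjusted p = 3.27e-05), *Psme4*, an activator, by 1.74, 1.91 and 1.77 log2 (adjusted p = 0.00221), and *Psmc6*, an ATPase of the cap, by 2.01, 1.63 and 1.19 log2 (adjusted p = 0.00319). The histone genes *H3c4* and *H3c7* were higher by 2.84, 3.90 and 5.53 and by 2.76, 3.34 and 4.00 log2, and a probe set shared by 12 histone H3 genes by 3.48 log2. *Bex4* and *Bex2*, small proteins known from neurons, were higher by 2.46, 2.88 and 2.46 and by 1.5, 1.31 and 1.68 log2.

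Both directions were found among regulators of lymphocytes. *Ddx60* and *Sp100*, which interferon also induces, were lower in fetal cells, at -2.50, -1.87 and -2.46 log2 for the first and -2.61, -1.37 and -1.35 log2 for the second. The transcription factors *Satb1* (-1.29, -1.60 and -1.05 log2), *Zeb2* (-1.33, -1.27 and -2.04 log2) and *Klf3* (-1.63, -0.92 and -0.88 log2) were lower too. *Jak2*, a kinase of cytokine receptors, was higher by 1.00, 1.02 and 0.87 log2. Of the costimulatory receptors *Tnfrsf9* was higher by 1.70, 2.24 and 2.86 log2 and *Tnfrsf18* lower, at -1.5, -2.41 and -2.30 log2.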
